A study of Mus musculus with 29 samples.

Results

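The miRNA miR-149 is represented by 4 rows of the small RNA counts, a mature and a hairpin row for each of its arms, mmu-miR-149-5p and mmu-miR-149-3p, out of 3097 mature and hairpin rows in all. The rows were found by name, and 2 of the 4, those of the 5p arm, had a mean count above 10 and entered the fit. The miRNA itself was chosen by its log2 fold change between diabetes-prone (DP) and diabetes-resistant (DR) mice, which was already known to be negative, so its levels in both groups are given as a description without a test. Gonadal white adipose tissue (gWAT), a visceral fat depot, was sequenced from 15 DP and 14 DR mice, 1 library per mouse. All mice were females of the inbred strain NZO/HIBomDife, New Zealand Obese mice that become obese and partly diabetic, kept on a high-fat diet and sampled at 10 weeks of age. No allele or drug separated the groups. A risk score assigned the mice to them before the onset of diabetes, so DP denotes a predicted and not yet an established disease.

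MiRNAs are cut from hairpin transcripts by Drosha and Dicer, after which one arm is usually loaded into an Argonaute protein and guides it to mRNAs that match its seed. Mir149 lies within *Gpc1*, which encodes glypican-1, a heparan sulphate proteoglycan of the cell surface. In mouse subcutaneous fat, the 3p arm has been described as a repressor of *Prdm16*, the transcriptional coregulator that drives browning, that is, the appearance of thermogenic adipocytes in white fat. The 5p arm has been studied mainly in tumour and inflammatory signalling.

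The hairpin of Mir149 is 66 bases long and maps to chr1:92850378-92850443 on the plus strand of GRCm38, the assembly that mm10 denotes. It is located in intron 1 of the 9-exon transcript Gpc1-201, in the sense orientation, 18280 bases behind exon 1 and 2903 bases before exon 2. No other annotated gene overlaps it. The arms are shown because the role in browning belongs to one of them and the reads to the other. Sequences are those of RefSeq for GRCm38.p6, both arms were matched by name, and capitals mark the seed (bases 2 to 8) in the mature miRNAs and the mature arms in the hairpin.
miR-149-5p: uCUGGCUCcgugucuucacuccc
miR-149-3p: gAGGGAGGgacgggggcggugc
Mir149 hairpin: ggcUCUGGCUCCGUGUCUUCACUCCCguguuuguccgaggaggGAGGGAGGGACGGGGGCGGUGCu

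The arms differ in composition. Guanine makes up 17.4% of the bases of miR-149-5p (chr1:92850381-92850403) and 68.2% of those of miR-149-3p (chr1:92850421-92850442). Of 1679 mature mouse miRNAs in RefSeq, only 3 have a higher share of guanine than miR-149-3p, and the median is 26.9%. The predicted fold of lowest free energy (-36.7 kcal/mol) pairs 19 of the 23 bases of the 5p arm and 19 of the 22 bases of the 3p arm.

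Nearly all reads of miR-149 in gWAT came from the 5p arm. Summed over the 29 libraries, mature miR-149-5p had 103556 counts and mature miR-149-3p had 16. The 3p arm therefore held 0.0154% of the mature counts of both arms (95% Wilson interval 0.00951% to 0.0251%, which covers counting error only). Its share was 0.0179% in DP mice (8 of 44643 counts, interval 0.00908% to 0.0354%) and 0.0136% in DR mice (also 8 counts, interval 0.00688% to 0.0268%), and these intervals overlap. The role in browning has thus been described for an arm that was hardly counted in this tissue, and the levels given for the groups are those of the 5p arm. Whether arms of so different a composition are counted with the same efficiency was not tested, so the share is one of counts.

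Between 0 and 3 counts of mature miR-149-3p were obtained per library. It was counted in 4 of 15 DP mice and in 5 of 14 DR mice. A count of 0 in the shallowest library still allows 3 counts, which is 0.147 CPM (counts scaled to 1000000 per library) for the DP group and 0.146 CPM for the DR group. The hairpin row of the 3p arm summed to 4 counts in 3 DP mice and 3 counts in 2 DR mice. Both 3p rows remained below the mean count of 10 that was required for a comparison, and a difference between the groups was not detectable at this depth.

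A preference for one arm was common, although seldom so pronounced. Of 546 stems with both arms in the table, 154 had at least 10000 mature counts over both. Among these, the rarer arm held a median of 1.29%, and miR-149 ranked 12 from the lowest. Lower shares were found, for instance, for miR-146a, a feedback inhibitor of inflammatory signalling, with 15 counts of the 3p arm against 879691 of the 5p arm, and for the smooth muscle miRNA miR-143, with 611 counts of the 5p arm against 18131035 of the 3p arm.

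**Figure D1:**
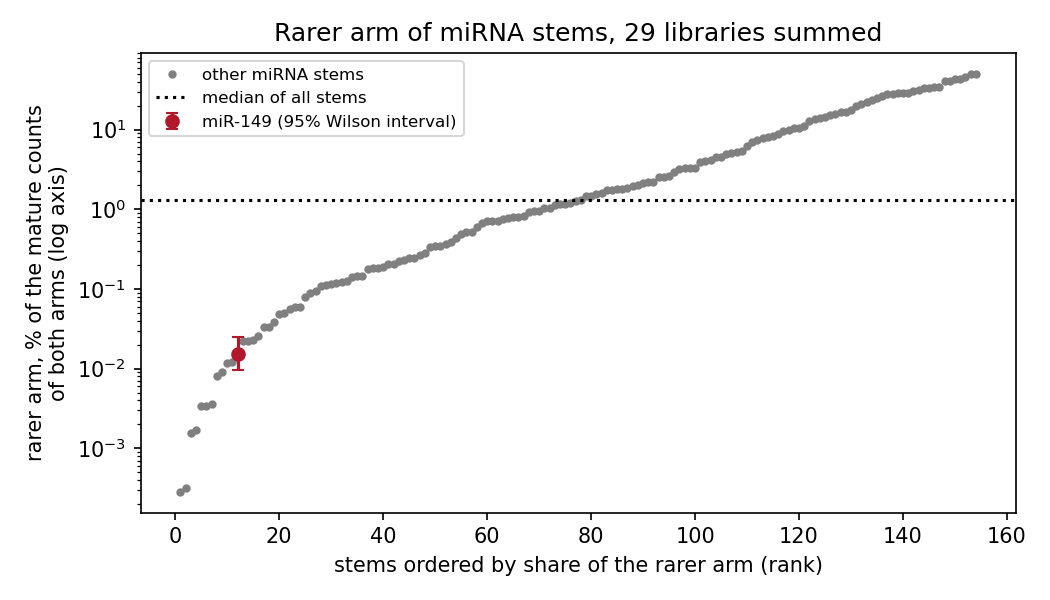
Share of the rarer arm in the mature counts of both arms (y axis, percent, log axis) for the 154 stems with at least 10000 counts, ordered from the lowest to the highest share (x axis), with all 29 libraries summed. The red point is miR-149 at 0.0154% with its 95% Wilson interval, and the dotted line is the median of 1.29%.

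Mature miR-149-5p was lower in gWAT of DP mice than of DR mice. With TMM scaling (trimmed mean of M values between libraries), it ranged from 105 to 165 CPM in DP mice with a median of 129, against 138 to 243 CPM with a median of 197 in DR mice. All 15 DP mice were below the DR median and all 14 DR mice above the DP median. The ranges overlapped through a single library, and 13 of 14 DR mice exceeded every DP mouse. DR replicate 7, with library number 200, was the lowest of its group at 138 CPM, while the next lowest DR mouse, at 166.3 CPM, exceeded the highest DP mouse at 165.5 CPM. For orientation, of the 1162 rows that averaged over 10 counts, 25.9% passed an adjusted p under 0.05 in edgeR's quasi-likelihood test, 14.0% as higher and 11.9% as lower in DP mice. As the miRNA was chosen on this contrast, nothing is read from its place among them or from the separation of the groups. The share of all rows with as little overlap is not given here. Before scaling, the counts were 2347 to 3624 in DP and 2735 to 5024 in DR mice.

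Mean expression of mature miR-149-5p was 132 ± 18.4 CPM among the 15 DP mice and 195 ± 29.1 CPM among the 14 DR mice (mean ± SD), which is 32.3% lower in DP mice. The log2 fold change (DP over DR) was -0.56 with a standard error of 0.08, and -0.60 without DR replicate 7. The coefficient of variation was 14.0% in DP and 15.0% in DR mice, so that the difference between the means exceeded the SD of either group. Since whole tissue was sequenced, fewer cells that express miR-149 and less miR-149 per cell cannot be told apart.

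The hairpin row of miR-149-5p, which may hold the same reads as the mature row, differed in the same manner. It ranged from 147 to 222 CPM in DP mice (median 172) and from 191 to 336 CPM in DR mice (median 269). DR replicate 7 was again the lowest DR mouse, and 12 of 14 DR mice exceeded every DP mouse. DP mice averaged 178 ± 22.5 CPM (SD, n = 15), against 261 ± 38.1 CPM for DR mice (SD, n = 14), and the fitted log2 fold change was -0.55 with a standard error of 0.07.

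**Figure D2:**
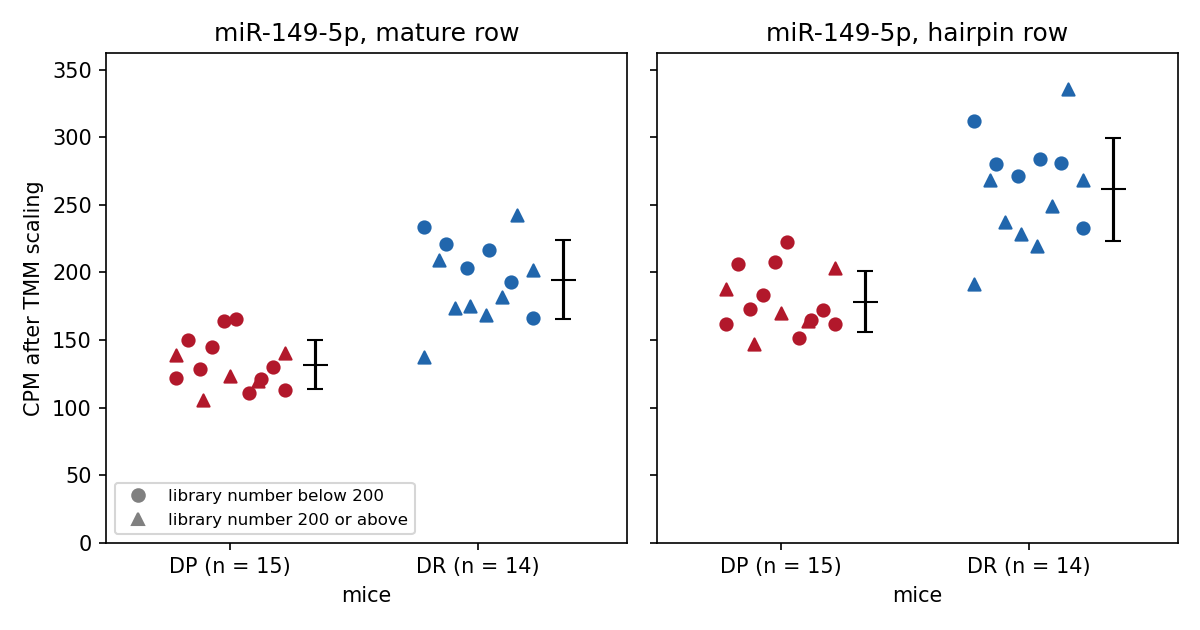
Expression of the mature (left) and hairpin (right) row of miR-149-5p in CPM after TMM scaling (y axis, from 0), 1 point per mouse, DP in red and DR in blue. Circles are libraries numbered below 200 and triangles those numbered 200 or above, and black marks give mean ± SD. In the mature row 13 of 14 DR mice lie above the highest DP mouse, and the exception is DR replicate 7 at 138 CPM.

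Libraries carry a number in their labels, the meaning of which is not stated. Because expression was known from earlier results of these data to vary with it, the mice were also divided at number 200. The difference in miR-149-5p was seen on either side of the division. The miRNA was chosen on its difference over these same mice, so this describes the parts and is no replication. Below 200, mature miR-149-5p averaged 135 ± 20.0 CPM over 10 DP mice and 206 ± 23.8 CPM over 6 DR mice (mean ± SD), and the lowest DR value (166.3 CPM) was above the highest DP value (165.5 CPM). From 200 on, it averaged 125 ± 14.5 CPM over 5 DP mice and 186 ± 31.5 CPM over 8 DR mice, and only DR replicate 7 fell within the DP range of 105 to 140 CPM. The log2 fold change was -0.60 below 200 and -0.51 from 200 on for the mature row, and -0.61 and -0.46 for the hairpin row.

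Within the groups, mice with a higher mature row of miR-149-5p also had a higher hairpin row, a relation that does not depend on the difference between the groups. With group means removed, the log2 CPM of both rows correlated with Pearson r = 0.967 and Spearman rho = 0.958 over the 29 mice (two-sided permutation test within groups, p = 1e-05 for each, the smallest that 100000 permutations can give). The adjusted p over the 9 relations computed was 3e-05 for r. Within DP mice r was 0.964 (rho = 0.964), and within DR mice it was 0.970 (rho = 0.921). Without the 2 mice farthest from the median of the hairpin row, r was 0.961. Divided by library number, r was 0.958 below 200 (n = 16) and 0.982 from 200 on (n = 13). How reads of a hairpin were separated from those of its mature miRNA is not stated. Both rows may therefore hold the same reads, in which case so high a correlation follows from the counting. The test cannot tell this from a relation between precursor and mature miRNA.

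The hairpin row outnumbered the mature row in every mouse. The ratio of hairpin to mature counts was 1.26 to 1.45 in DP mice (1.36 ± 0.0509, SD, n = 15) and 1.27 to 1.46 in DR mice (1.35 ± 0.0511, SD, n = 14). The means differed by less than the SD. The spread between mice was narrow compared with that between miRNAs, since over 521 mature miRNAs with a hairpin row of the same name the ratio had quartiles of 0.446 and 1.95 and a median of 0.949. The ratio was higher than that of miR-149-5p for 193 of them.

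**Figure D3:**
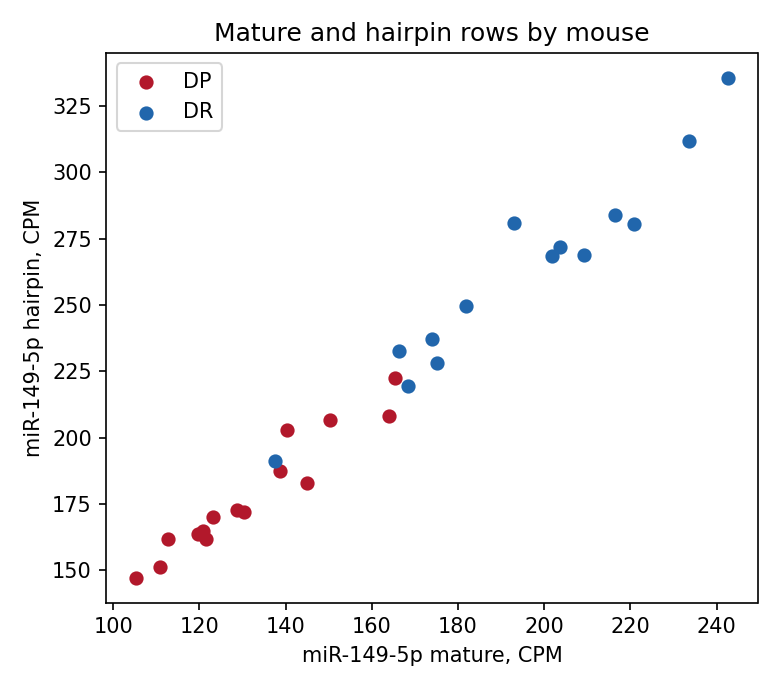
Mature (x axis) against hairpin (y axis) row of miR-149-5p in CPM, 1 point per mouse, DP in red and DR in blue. The points form a single line along which DP mice occupy the lower end, with DR replicate 7 among them, and r was 0.967 with group means removed.

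Over all mice, no relation of mature miR-149-5p to library number or library size passed a permutation test within the groups. With group means removed, r was -0.31 (rho = -0.30, permutation test, p = 0.108 and 0.127) for library number and 0.04 (rho = -0.05, p = 0.834 and 0.785) for the summed counts of mature and hairpin miRNAs, and the adjusted p over the 9 relations was 0.244 and 0.845 for r. For library number, r was -0.37 in DP and -0.26 in DR mice, and -0.29 without the 2 mice farthest from its median. The sign differed between the parts, with r = -0.52 below 200 (n = 16) and 0.50 from 200 on (n = 13), where neither passed (adjusted p = 0.0977 and 0.177, permutation test). The 6 DR mice below 200, however, had r = -0.86 (adjusted p = 0.0428, permutation test), and without the 2 farthest mice the DP group had r = -0.62 (p = 0.0263, permutation test, unadjusted). For library size r was 0.04 without the 2 farthest mice, -0.26 below 200 and 0.52 from 200 on (adjusted p = 0.404 and 0.174, permutation test). Counts of mature and hairpin miRNAs per library ranged between 20385384 and 23214934 for DP mice and between 20599231 and 23187920 for DR mice.

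The miRNA was moderately abundant, and its spread between mice of a group was ordinary for its level. By mean CPM, which takes no account of length, it held rank 100 of 574 tested mature miRNAs in DP mice and rank 92 in DR mice. Its SD within groups was 0.21 on the log2 scale. Among 45 other mature miRNAs with 0.5 to 2 times its mean CPM the median SD was 0.25, and 16 had a smaller one.

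No other mature mouse miRNA in RefSeq has the seed of miR-149-5p. The seed of miR-149-3p is found in 3 others, which are shown for comparison with the seed in capitals.
miR-1943-5p: aAGGGAGGaucugggcaccugga
miR-6967-5p: cAGGGAGGgauaaagaccagu
miR-7016-5p: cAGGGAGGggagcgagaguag
All 3 were rare. MiR-1943-5p summed to 173 counts over the DP mice and 184 over the DR mice and was detected in all 29 libraries. Its log2 fold change was -0.26 and did not pass (SE 0.20, adjusted p = 0.337 in edgeR's quasi-likelihood test). MiR-6967-5p, likewise detected in all 29 libraries, summed to 81 counts over DP mice and 68 over DR mice, and miR-7016-5p to 5 counts over DP mice and 9 over DR mice, both below the filter. The most frequent carrier of this seed in the table was thus not an arm of Mir149.

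Neither of the nearest tested miRNAs on chromosome 1 passed the test. For miR-6900-3p, 386 kb before Mir149 and on the minus strand, the log2 fold change was -0.17 (SE 0.17, adjusted p = 0.487 in edgeR's quasi-likelihood test). For miR-128-3p, 35352 kb behind it, it was 0.02 (SE 0.07, adjusted p = 0.840 in the same test).

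To find miRNAs that varied with miR-149-5p from mouse to mouse, the log2 CPM of 264 other named mature miRNAs with a mean of at least 10 CPM were correlated with it over the 29 libraries after the group means were removed. These are the extremes of many correlations and carry no test. The highest was miR-204-5p, which favours adipogenesis, with r = 0.63 (0.56 in DP and 0.69 in DR mice). It was followed by miR-193a-5p (r = 0.58), miR-203-5p (0.57), miR-676-3p (0.56) and miR-328-3p (0.55), the last of which has been described to promote brown adipocyte differentiation. The lowest values were those of miR-24-2-5p (r = -0.69), miR-501-3p (-0.61) and miR-374b-5p (-0.59). In both groups each of the 8 had the same sign. The 5th and 95th percentiles of all 264 correlations were -0.49 and 0.47.

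Over all 1162 features, hairpin rows included, 11.9% were lower in DP mice, and the share among the 264 candidates is not given. Of the 5 miRNAs most like miR-149-5p, which was itself chosen on this contrast, 4 were lower in DP mice. Their log2 fold changes were -0.68 for miR-204-5p (adjusted p = 2.1e-07), -0.47 for miR-193a-5p (adjusted p = 0.00194), -0.51 for miR-203-5p (adjusted p = 0.000133) and -0.35 for miR-676-3p (adjusted p = 0.000443), all in edgeR's quasi-likelihood test. MiR-328-3p, with -0.09, did not pass (adjusted p = 0.680 in the same test). At the other end, miR-501-3p was higher in DP mice (log2 fold change 0.55, adjusted p = 0.000324), whereas miR-24-2-5p (0.22, adjusted p = 0.0618) and miR-374b-5p (-0.02, adjusted p = 0.925) did not pass edgeR's quasi-likelihood test.

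**Figure D4:**
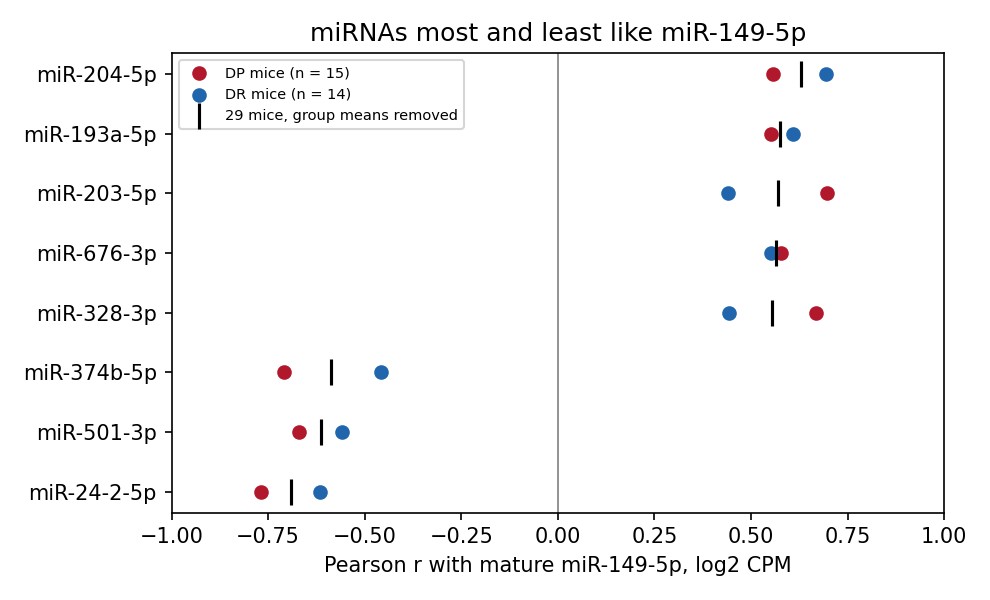
Pearson r of log2 CPM with mature miR-149-5p (x axis) for the 5 most and the 3 least similar of 264 mature miRNAs, in DP mice (red), in DR mice (blue) and in all 29 mice with group means removed (black bar). Every point of the upper 5 is positive and every point of the lower 3 negative, with miR-204-5p at 0.63 and miR-24-2-5p at -0.69.

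Other miRNAs of browning were compared as well. Their lists were chosen with earlier results of these data known, so the counts are a description and no set test was made. Of 16 mature miRNAs described to promote brown or beige adipocyte differentiation, 7 fell, 2 rose and 7 did not pass edgeR's quasi-likelihood test, with a median log2 fold change of -0.19 compared to 0.02 over all 1162 features. The share over all features was 11.9% lower and 14.0% higher. Those with the smallest p were miR-203-3p (log2 fold change -0.46), an activator of brown adipocyte genes, miR-455-5p (0.67), from a locus that drives brown adipogenesis, miR-26a-5p (-0.33), which raises thermogenic genes in human adipocytes, and miR-193b-3p (-0.82). The other that rose was miR-129-5p (0.81). In CPM, miR-193b-3p, which supports brown fat differentiation, averaged 118 ± 26.4 among DP mice (SD, n = 15) and 208 ± 81.3 among DR mice (SD, n = 14), a level similar to that of miR-149-5p with a wider spread.

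Of 14 miRNAs described to restrain browning, 13 could be tested, 3 rose, 0 fell and 10 did not pass, with a median log2 fold change of 0.07. None fell at an unadjusted p under 0.05 in edgeR's quasi-likelihood test or by edgeR's exact test, DESeq2 or limma-voom. The 3 were miR-27b-3p (log2 fold change 0.38), a repressor of *Prdm16*, miR-199a-5p (0.54), from a cluster with the same target, and let-7i-5p (0.18). The call of let-7i-5p was lost in 15 of 29 fits that omit 1 library each (adjusted p up to 0.0707 in edgeR's quasi-likelihood test). From library number 200 on, with 5 DP and 8 DR mice, none of the miRNAs of either list passed edgeR's quasi-likelihood test, and over all features DP mice were higher in 17 and lower in 2. Below 200, with 10 DP and 6 DR mice, 181 features were higher and 122 lower, with 2 rising and 6 falling of those that promote browning and 4 rising of those that restrain it. By unadjusted p under 0.05, 2 rose and 2 fell from 200 on of those that promote browning, and 2 rose of those that restrain it. From 200 on, the log2 fold change was over 1.5 times smaller than over all 29 mice for miR-203-3p (-0.29), miR-26a-5p (-0.12), miR-26b-5p (-0.16), miR-378a-3p (-0.24), miR-30c-5p (-0.43) and miR-199a-5p (0.23). Compared with the mice below 200, it was also smaller for miR-193b-3p (-1.06 below and -0.62 from 200 on), miR-455-5p (0.73 and 0.46) and miR-27b-3p (0.53 and 0.27). MiR-196a-5p had -0.14 in both parts and -0.19 over all 29 mice. Its call was lost with library totals (adjusted p = 0.0834 in edgeR's quasi-likelihood test) and by edgeR's exact test (adjusted p = 0.0791). The log2 fold change of miR-149-5p from 200 on was -0.51. As this miRNA was chosen on the same contrast, the values are not compared.

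MiRNAs of other cell types in the fat pad were examined as well, and their calls are to be read beside the 14.0% of all features that were higher and the 11.9% that were lower in DP mice. The lists of these miRNAs, too, were chosen with earlier results of these data known. Both arms of miR-126a, which mark endothelium, summed to 55439 to 79477 CPM in DP mice, against 69416 to 99146 CPM in the DR group. The smooth muscle miRNAs miR-143-3p and miR-145a-5p summed to 20398 to 29563 CPM in DP mice, against 28076 to 42029 CPM in the DR group. All 4 fell in edgeR's quasi-likelihood test, although 1 of the miR-126a arms did not pass by edgeR's exact test or limma-voom. Of 5 leukocyte miRNAs 3 rose, namely miR-142a-3p (log2 fold change 0.86), miR-142a-5p (0.58) and miR-223-3p (0.39). MiR-150-5p fell (-0.49), and miR-155-5p did not pass (0.07). Their sums were 4258 to 6398 CPM for DP mice (median 5164) and 5352 to 8677 CPM for DR mice (median 6940). The sum thus does not give the direction of most members. Of 6 epithelial miRNAs 2 rose and 1 fell, with sums of 44.2 to 151 CPM for DP and 48.5 to 67.2 CPM for DR mice. From library number 200 on, none of these endothelial, smooth muscle, leukocyte or epithelial miRNAs passed edgeR's quasi-likelihood test. Over all features, 17 were higher and 2 lower in DP mice there. At an unadjusted p under 0.05 in the same test, 1 leukocyte miRNA rose there. By that measure 1 endothelial, 1 smooth muscle and 2 epithelial miRNAs fell.

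For 3 skeletal muscle miRNAs the sums were 9.68 to 342 CPM in DP mice, against 19.9 to 703 CPM in the DR group. For miR-122-5p of liver the values were 3.32 to 274 CPM in DP mice, against 7.58 to 166 CPM in the DR group, and for 2 red cell miRNAs the sums were 9620 to 22075 CPM in DP mice, against 12343 to 22058 CPM in the DR group. None of these 6 passed edgeR's quasi-likelihood test, its exact test, DESeq2 or limma-voom, and 1 of them, a red cell miRNA, fell at an unadjusted p under 0.05. The miRNAs of muscle and liver were thus low in most libraries but not absent, and none of the listed miRNAs was at 0 throughout. No miRNA particular to adipocytes was among the lists. The part of these cell types in the lower level of miR-149-5p was not tested.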

How the data were processed

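Small RNA sequencing covered gWAT of 15 DP and 14 DR mice. Per the methods of the study and the submitters' processing notes, the authors used BGISEQ-500 reads, relied on miRDeep2 to annotate mature and hairpin forms, and name Bowtie2 and mm10. Versions and the counting of reads that match several miRNAs are not given in the sources used here. The deposited values are raw read counts per small RNA, without normalization. The 4 rows for exons, introns, intergenic sequence and repeats (median 8.39% of counts) were left out.

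Groups were taken from the disease state in the labels. Rows that averaged over 10 counts (574 mature, 588 hairpin) were scaled by TMM and compared with edgeR 4.0.16 (quasi-likelihood test, R 4.3.3, no covariate) with Benjamini-Hochberg adjustment over all 1162. A miRNA rose or fell at an adjusted p under 0.05. Log2 CPM used a prior count of 2. Permutation tests, with 100000 permutations, shuffled mice within groups (NumPy 2.4.6), and folds came from ViennaRNA 2.7.2. The methods of the study do not mention molecular identifiers. Intervals treat each count as independent and cover counting error only. The fit was checked on simulated counts and the permutation test on simulated normal values.

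Named were the miR-149 rows, the 5 most and 3 least correlated miRNAs, up to 4 members of each browning list by smallest p, miRNAs sharing a seed and the nearest tested loci. The members and lists were chosen with earlier results of these data known. Alternatives were other scalings (DESeq2 1.42.0 size factors, library totals), filters, features, tests (edgeR exact test, DESeq2, limma-voom with limma 3.58.1), library number, and omission of each library.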

Additional observations from a re-analysis of the deposited data

How the results depend on the processing

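The log2 fold change of mature miR-149-5p was -0.60 to -0.49 under 13 alternatives and -0.60 to -0.54 when 1 library was omitted at a time, and that of its hairpin -0.61 to -0.46 under 12 and -0.59 to -0.53, each within 1 SD between mice of the value reported. With library totals in place of TMM, the median of all features shifted to 0.09, and 238 were higher and 102 lower in DP mice (70.0% higher, compared to 54.2% of 163 and 138 with TMM), while miR-149-5p had -0.49. Mature miRNAs alone gave 86 higher and 67 lower, since fewer features were tested. Libraries numbered below 200 alone (16 mice) gave 181 higher and 122 lower, with 2 rising and 6 falling on the list that promotes browning and 4 rising on the list that restrains it. Libraries numbered 200 and above alone (13 mice) gave 17 higher and 2 lower, with 0 rising and 0 falling on the promoting list and 0 rising on the restraining list by edgeR's quasi-likelihood test (2, 2 and 2 at an unadjusted p under 0.05). The relation of miR-149-5p to library number passed with library totals (r = -0.46, adjusted p = 0.0369, permutation test). Among the DR mice numbered below 200 alone, it also passed (r = -0.86, n = 6, adjusted p = 0.0428, permutation test). The counts on the lists stayed within 1.5 times of those reported under the other alternatives. Omitting 1 library, 149 to 178 features were higher and 124 to 158 lower, and r with the hairpin was 0.958 to 0.973. No paired analysis was possible because the labels give no replicate numbers that the groups share. Counts of 0 to 3 limit any statement on miR-149-3p.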
